A study of Mus musculus with 16 samples.

Results

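The comparison described here sets healthy quadriceps of mice given an inhibitor of the receptor CSF1-R against healthy quadriceps of mice given placebo, with 4 libraries in each group. These 8 libraries were chosen by their sample labels out of 16 bulk RNA-seq libraries from the quadriceps, the large muscle of the front of the mouse thigh. The other 8 came from quadriceps of limbs with a transected anterior cruciate ligament (ACLT), 4 with inhibitor and 4 with placebo. Per the labels' protocols, the inhibitor was given at 40 mg/kg and the placebo was 0.5% sucrose, both in drinking water, over 7 days that began with the transection. The protocol thus gives the treatment of every mouse as following a transection, and the library names join each healthy library to an ACLT library by a common stem, so the healthy muscles may be the uninjured limbs of operated mice; the labels do not state this. The labels give neither the compound's name, nor the strain, sex and age of the mice, nor the time of day at which muscle was taken. The libraries are called healthy inhibitor 1 to 4 and healthy placebo 1 to 4.

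CSF1-R is a receptor tyrosine kinase on monocytes and macrophages, and its ligands CSF1 and IL-34 keep these cells alive and dividing. Inhibitors of its kinase deplete many tissue macrophages, and in resting skeletal muscle such cells lie in the connective tissue between the fibres. Muscle fibres also hold a circadian clock, in which the transcription factors BMAL1 (gene Arntl) and CLOCK or NPAS2 switch on Per, Cry, Nr1d1 and Dbp, whose products in turn shut the activators down or pass the rhythm on to metabolic genes.

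The 8 healthy libraries held 20.17 to 27.13 M counts each (M, mega), and 16497 to 16921 genes had a count above 0 with inhibitor, against 16454 to 16843 with placebo. Mitochondrial genes took 12.19 to 15.42% of the counts with inhibitor and 11.47 to 18.98% with placebo. None of 4 library measures (total, genes above 0, mitochondrial share, share of the 10 most abundant genes) differed between the groups beyond the spread of libraries (two-sided exact permutation tests over 70 splits, p = 0.314 to 0.857, smallest possible 0.0286, Benjamini-Hochberg adjusted 0.686 to 0.857). The muscle identity of the samples was plain from Acta1, the skeletal actin, at 30424 to 35483 CPM with inhibitor and 29675 to 37222 CPM with placebo, where CPM is the count scaled to library size with TMM factors. Healthy inhibitor 1 and healthy placebo 4 stood apart in Prg4, which encodes the joint lubricant lubricin. Prg4 was 169, 5.50, 14.7 and 15.3 CPM in healthy inhibitor 1 to 4, against 3.97, 7.32, 19.5 and 251 CPM in healthy placebo 1 to 4. Many of the results that rest on either of these libraries are given with and without them.

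No gene passed the threshold for the inhibitor in healthy muscle. Of 15411 genes tested, 0 had an adjusted p of 0.05 or less (0% called; edgeR quasi-likelihood test, Benjamini-Hochberg adjustment), and the smallest adjusted p was 0.555. At an unadjusted p under 0.05 there were 514 genes, 3.34% of those tested, of which 201 (1.3%) were higher and 313 (2.03%) lower with inhibitor. The 4 inhibitor libraries lay entirely above or below the 4 placebo libraries for 393 genes (2.55%), 148 higher (0.96%) and 245 lower (1.59%). Over all tested genes the log2 difference (inhibitor minus placebo) was above 0 for 7083 and below 0 for 8328, with a median of -0.02. DESeq2, run as an alternative, called 11 genes (0.0634% of 17350), which were Coq10b, Vgll2, Irf2bp2, Per3, Bhlhe40, Myf6, Per1, Npas2, Fgf6, Per2 and Dbp, while limma-voom with quality weights called 0, with 571 at an unadjusted p under 0.05. All statements of higher or lower below describe levels and unadjusted tests, since no gene was called by edgeR. Each p-value and each SE of the main edgeR fit rests on the spread within groups over all 16 libraries, so the ACLT libraries also enter it. The labels call the libraries biological replicates without saying whether each is a separate animal.

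**Figure D1:**
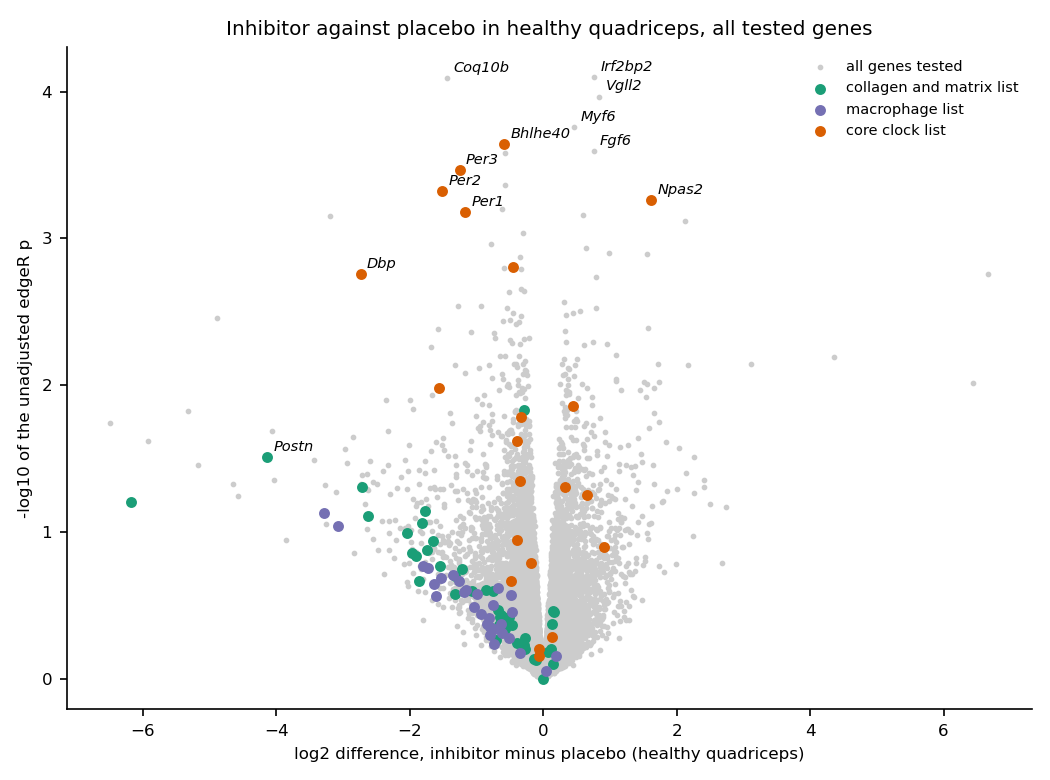
Log2 difference between inhibitor and placebo in healthy quadriceps (x axis) against -log10 of the unadjusted edgeR p (y axis) for the 15411 genes tested, with the core clock, macrophage and collagen and matrix lists in colour. Clock genes stand near the top on both sides, with Per3 at -1.25 and Npas2 at 1.62, while macrophage and matrix genes spread to the left at larger p.

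The genes that led the ranking outside the clock included muscle transcription regulators and a growth factor. Those described here were picked by smallest p among genes whose groups did not overlap, so the choice set their lack of overlap. Irf2bp2, a transcriptional corepressor, had the smallest p. It measured 69.3, 72.4, 64.7 and 60.0 CPM in healthy inhibitor 1 to 4, against 41.3, 36.8, 33.6 and 45.1 CPM in healthy placebo 1 to 4. The lowest inhibitor library thus stood above the highest placebo library, and the log2 difference was 0.77 ± 0.15 (SE, n = 4 each; edgeR unadjusted p = 7.96e-05, adjusted p = 0.555; DESeq2 adjusted p = 0.0083). The gene (ENSMUSG00000051495) lies on the minus strand of chromosome 8 at 126588296 to 126593986 (GRCm38).

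Vgll2 encodes a cofactor of TEAD transcription factors that is made mainly in skeletal muscle. Its level was 151, 99.4, 151 and 106 CPM in healthy inhibitor 1 to 4, against 64.8, 74.6, 70.6 and 72.8 CPM in healthy placebo 1 to 4, a log2 difference of 0.84 ± 0.17 (edgeR unadjusted p = 0.000108, adjusted p = 0.555). The placebo libraries lay close together and the inhibitor libraries formed a high and a low pair, both above them. Myf6 encodes MRF4, the myogenic regulatory factor most abundant in adult muscle. It stood at 58.9, 54.4, 59.3 and 69.98 CPM with inhibitor and 48.7, 45.8, 41.1 and 40.3 CPM with placebo (log2 difference 0.46 ± 0.10, edgeR unadjusted p = 0.000174, adjusted p = 0.573). Fgf6, a fibroblast growth factor made mainly by muscle, stood at 9.10, 12.3, 13.2 and 12.97 CPM with inhibitor and 7.08, 7.27, 8.24 and 5.51 CPM with placebo (log2 difference 0.76 ± 0.16, edgeR unadjusted p = 0.000255, adjusted p = 0.573). For both genes the 2 groups did not overlap. Dusp8, a phosphatase that acts on stress-activated MAP kinases, differed by 0.60 ± 0.14, and Igf2bp2, an RNA-binding protein of growth-related transcripts, by 1.56 ± 0.40, each without overlap.

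Coq10b, which encodes a mitochondrial coenzyme Q-binding protein, was the gene with the second smallest p and was lower with inhibitor. It measured 5.26, 3.75, 4.75 and 3.86 CPM in healthy inhibitor 1 to 4, against 5.99, 13.1, 15.0 and 13.8 CPM in healthy placebo 1 to 4 (log2 difference -1.44 ± 0.28, edgeR unadjusted p = 8.06e-05, adjusted p = 0.555). Healthy placebo 1 lay just above the inhibitor libraries and the other placebo libraries far above them. Without healthy placebo 1, Coq10b was the 1 gene that edgeR called, at -1.66 ± 0.23 (adjusted p = 0.0362).

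**Figure D2:**
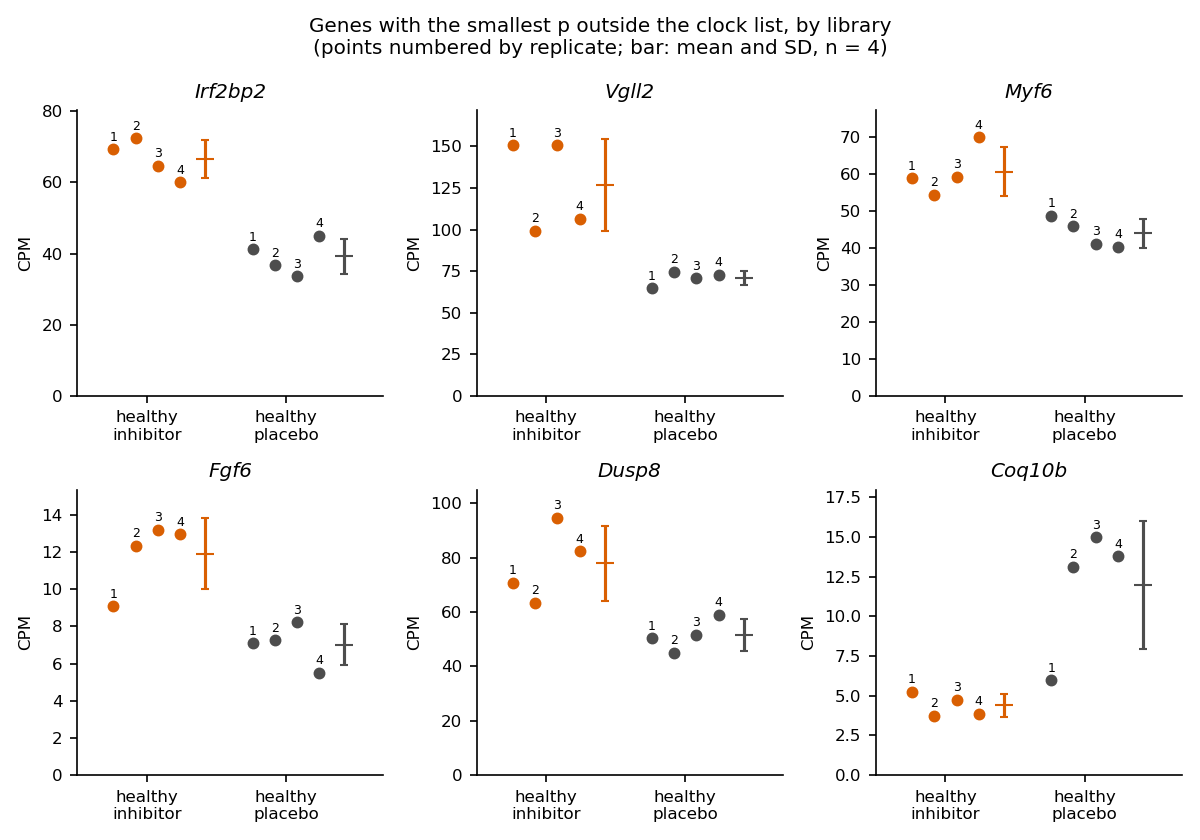
CPM (y axis, from 0) of 6 genes in the healthy inhibitor and healthy placebo libraries (x axis), with points numbered by replicate and the mean and SD of 4 libraries beside them. The 6 come from genes whose groups do not overlap (2.55% of those tested), so the choice set their lack of overlap. Healthy placebo 1 is the placebo library nearest to the inhibitor libraries for Coq10b, at 5.99 CPM.

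The same rule of smallest p without overlap named 12 genes higher and 12 lower. Beside those above and Npas2, the higher ones were Ifi35, Invs, Hist2h3c2, Zfp329 and Cep63, with log2 differences of 0.64, 0.80, 0.79, 0.56 and 0.35. Hist2h3c2 is 1 of several near-identical histone H3 genes, so its counts are uncertain. The lower ones beside Coq10b and the clock genes Bhlhe40, Per1, Per2, Per3 and Nr1d2 were Trp53inp1 (-0.58), Stk35 (-0.57), Usp2 (-0.62), Pole (-0.78), Ggnbp2 (-0.34) and Pdp1 (-0.58). Usp2, a deubiquitinase whose transcript cycles with the clock in many tissues, measured 104, 90.3, 81.8 and 96.9 CPM with inhibitor and 131, 132, 169 and 142 CPM with placebo. Pdp1, a phosphatase that activates pyruvate dehydrogenase, measured 53.0, 70.9, 48.6 and 53.4 CPM with inhibitor and 73.3, 108, 80.0 and 76.9 CPM with placebo.

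The core clock was the gene list with the largest share of members at an unadjusted p under 0.05. The lists were chosen with earlier results of these data known, so this ranking is a description and not a test. Of the 21 core clock members, all tested, 13 had an unadjusted p under 0.05 (61.9%, against 3.34% of all genes), 3 higher and 10 lower with inhibitor. The groups did not overlap for 8 members (38.1%, against 2.55% of all genes), with Npas2 and Clock higher and Per1, Per2, Per3, Bhlhe40, Nr1d2 and Hlf lower. The median log2 difference of the list was -0.35, against -0.02 over all genes. Of the 21, 6 had a positive difference, among them the activators Arntl, Clock and Npas2 together with Cry1 and Nfil3, and 15 were below 0.

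The promoters of 3 clock genes are shown because they hold the E-box, the element that BMAL1 and CLOCK bind, or the D-box, bound by DBP, TEF, HLF and NFIL3. Each run gives the 250 bases before a RefSeq transcription start on GRCm38.p6, 5′ to 3′ on the gene's own strand. Capitals mark only the searched letters, CACGTG for the E-box and TTATGTAA for the D-box. The Per1 run lies inside the annotated gene, which begins at chr11:69095217, so the start it precedes is downstream of the gene's first base. Per1 lies at chr11:69098699-69098948 (plus strand, 1 E-box beginning 166 bases before the start), Ciart at chr3:95882229-95882478 (minus strand, 3 E-boxes beginning 116, 58 and 44 bases before the start) and Per3 at chr4:151044666-151044915 (minus strand, 2 D-boxes beginning 205 and 158 bases before the start).
Per1: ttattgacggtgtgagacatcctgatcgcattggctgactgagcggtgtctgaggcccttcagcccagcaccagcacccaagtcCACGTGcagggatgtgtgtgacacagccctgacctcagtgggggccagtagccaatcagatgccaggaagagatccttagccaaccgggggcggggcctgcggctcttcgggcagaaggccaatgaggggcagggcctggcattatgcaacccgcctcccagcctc
Ciart: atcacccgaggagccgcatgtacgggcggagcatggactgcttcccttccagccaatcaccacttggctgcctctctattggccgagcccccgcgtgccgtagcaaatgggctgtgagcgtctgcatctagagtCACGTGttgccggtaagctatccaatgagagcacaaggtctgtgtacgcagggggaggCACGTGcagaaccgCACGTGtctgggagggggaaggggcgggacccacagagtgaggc
Per3: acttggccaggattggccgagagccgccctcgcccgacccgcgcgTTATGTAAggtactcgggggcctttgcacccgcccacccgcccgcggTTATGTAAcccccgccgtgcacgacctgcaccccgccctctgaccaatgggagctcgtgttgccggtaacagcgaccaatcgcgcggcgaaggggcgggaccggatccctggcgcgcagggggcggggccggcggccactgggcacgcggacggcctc
The E-box was searched as CACGTG and the D-box as TTATGTAA, on both strands, in windows from 250 bases before to 50 after the start. Other spellings of either element were not searched, so the shares cover these letters alone. The Per1 run holds TTATGCAA, 1 base away from the searched D-box, in lower case. The E-box letters were in 5 of the 17 clock genes (of 21) with a listed promoter (29.4%; Per1, Cry1, Tef, Ciart and Bhlhe41), against 2187 of 27025 genes (8.09%). The D-box letters were in 1 of the 17 (5.88%; Per3), against 299 of 27025 genes (1.11%). A match describes the letters in the window and is not evidence of binding.

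Among the activators, Npas2 and Clock were higher in every inhibitor library than in any placebo library. Npas2 measured 4.16, 2.29, 3.79 and 2.81 CPM in healthy inhibitor 1 to 4, against 1.28, 1.22, 0.416 and 1.32 CPM in healthy placebo 1 to 4 (log2 difference 1.62 ± 0.38, edgeR unadjusted p = 0.000545, adjusted p = 0.720). Clock differed by 0.33 ± 0.16 without overlap. Arntl measured 35.6, 28.9, 37.8 and 42.8 CPM with inhibitor and 43.0, 18.3, 17.4 and 13.4 CPM with placebo, so healthy placebo 1 was above every inhibitor library and the other 3 placebo libraries were below them all. Its log2 difference was 0.65 ± 0.31 (unadjusted p = 0.0554) with all libraries and 1.15 without healthy placebo 1.

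The repressors of the Per family stood lower with inhibitor in every library. Per1 measured 23.3, 12.04, 19.4 and 16.2 CPM in healthy inhibitor 1 to 4, against 38.9, 29.6, 52.2 and 38.4 CPM in healthy placebo 1 to 4 (log2 difference -1.17 ± 0.27, edgeR unadjusted p = 0.000662, adjusted p = 0.720). Per2 measured 3.52, 1.87, 2.68 and 2.01 CPM with inhibitor and 3.89, 5.06, 9.11 and 10.8 CPM with placebo (-1.51 ± 0.35, edgeR unadjusted p = 0.000474, adjusted p = 0.720). Per3 measured 12.5, 17.7, 9.61 and 14.0 CPM with inhibitor and 19.7, 28.8, 41.0 and 38.5 CPM with placebo (-1.25 ± 0.27, edgeR unadjusted p = 0.000341, adjusted p = 0.657). For Per2 and Per3 the placebo library nearest to the inhibitor group was again healthy placebo 1. The cryptochromes, partners of PER in repression, differed in sign, with Cry1 at 0.45 ± 0.16 and Cry2 at -0.33 ± 0.12. Ciart, another repressor of the CLOCK and BMAL1 pair, was at -1.57 ± 0.54, with 0.686, 0.650, 0.460 and 0.847 CPM with inhibitor and 0.701, 0.949, 3.74 and 2.43 CPM with placebo.

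Dbp, a PAR bZIP factor that carries the rhythm to output genes, had the largest log2 difference of the list. It measured 9.97, 19.1, 7.35 and 10.8 CPM in healthy inhibitor 1 to 4, against 16.04, 52.8, 133 and 113 CPM in healthy placebo 1 to 4, a log2 difference of -2.73 ± 0.70 (edgeR unadjusted p = 0.00175, adjusted p above 0.99; DESeq2 adjusted p = 0.0413). Healthy placebo 1 lay within the inhibitor libraries and the other placebo libraries above them. The related factors Tef and Hlf were at -0.40 ± 0.16 and -0.39 ± 0.23. Nfil3, which competes with them for the D-box, had the opposite sign, with 56.7, 35.2, 43.5 and 57.1 CPM with inhibitor and 60.1, 18.3, 12.4 and 11.5 CPM with placebo, a log2 difference of 0.91 ± 0.56 (unadjusted p = 0.127) that was 1.78 without healthy placebo 1.

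Bhlhe40, a repressor that occupies E-boxes, had the smallest p of the list, with 96.2, 102, 85.9 and 120 CPM in healthy inhibitor 1 to 4, against 164, 169, 140 and 132 CPM in healthy placebo 1 to 4 (log2 difference -0.58 ± 0.12, edgeR unadjusted p = 0.000228, adjusted p = 0.573). Nr1d2 and Nr1d1, which encode the REV-ERB repressors of Arntl, were at -0.45 ± 0.12 and -0.35 ± 0.16. Their activating counterpart Rora was at -0.06 ± 0.15, and the kinases Csnk1d and Csnk1e, which phosphorylate PER, at -0.18 ± 0.12 and -0.06 ± 0.12. For 13 of the 21 members healthy placebo 2 to 4 all lay on one side of the inhibitor libraries, against 913 of all 15411 genes (5.92%), while healthy placebo 1 lay within the inhibitor range for 6, among them Dbp, Nr1d1, Ciart, Cry1 and Bhlhe41. The number of members at an unadjusted p under 0.05 was 9 without healthy inhibitor 1, 9 without healthy inhibitor 3, 7 without healthy placebo 3, 12 to 14 without any other single library, and 8 without both libraries high in Prg4.

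The clock was measured also in ACLT quadriceps, whose libraries may come from the same mice and so are not independent of the healthy ones. There 12 of the 21 members had an unadjusted p under 0.05 (57.1%, against 14.9% of all genes), and the median log2 difference was -0.40. Per1 was at -1.36 ± 0.27, Per2 at -1.47 ± 0.35, Per3 at -1.01 ± 0.27, Dbp at -3.05 ± 0.71 and Bhlhe40 at -0.59 ± 0.12. ACLT placebo 1, whose name carries the stem of healthy placebo 1, stood with the inhibitor libraries for Dbp, Nfil3 and Arntl, and above them for Clock. Dbp was at 13.4 CPM there against 75.9 to 114 CPM in ACLT placebo 2 to 4. Nfil3 was at 50.3 CPM there against 11.8 to 18.6 CPM in ACLT placebo 2 to 4. Arntl was at 28.2 CPM in ACLT placebo 1 against 14.5 to 16.4 CPM in ACLT placebo 2 to 4, and Clock at 55.7 CPM against 31.2 to 37.5 CPM. For Per1, Per2, Per3 and Bhlhe40, ACLT placebo 1 lay above every ACLT inhibitor library, at 32.7, 4.92, 20.1 and 147 CPM. Npas2 was the 1 clock gene whose inhibitor effect had an unadjusted p under 0.05 for a difference between healthy and ACLT muscle. It was at 1.62 in healthy and 0.37 in ACLT muscle (difference 1.25 ± 0.52, edgeR unadjusted p = 0.0292, adjusted p = 0.998). Npas2 was also picked by its healthy values, which this difference reuses. What sets the position of either placebo 1 library was not tested. In the library names the inhibitor samples run from q_one to q4 and the placebo samples from q5 to q8, with placebo 1 as q5. This numbering therefore cannot be told apart from treatment. The order and time of day of collection are not given, and their part in the clock values was not tested.

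**Figure D3:**
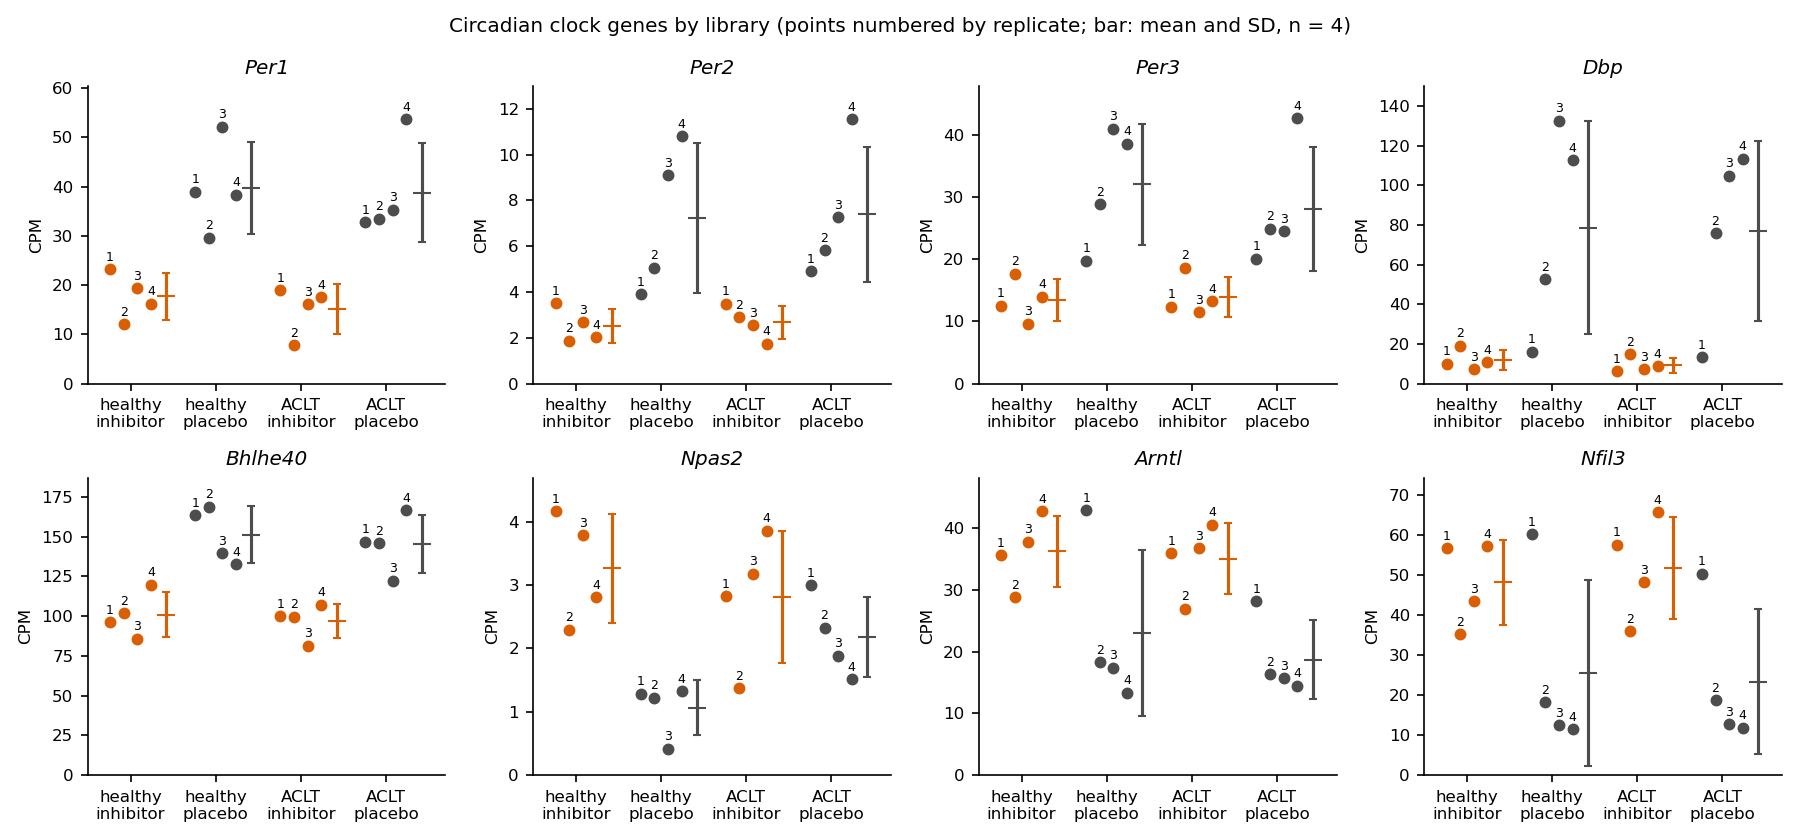
CPM (y axis, from 0) of 8 clock genes in the 4 groups of 4 libraries, healthy and ACLT, inhibitor and placebo (x axis), with points numbered by replicate and the mean and SD beside them. Per1, Per2, Per3 and Bhlhe40 are lower in all healthy inhibitor libraries than in any healthy placebo library, and for Arntl and Nfil3 placebo 1 lies apart from placebo 2 to 4, at 43.0 and 60.1 CPM in healthy muscle.

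The inhibitor's target and its ligands did not differ beyond the spread in healthy muscle. Csf1r measured 14.5, 8.48, 6.97 and 3.39 CPM in healthy inhibitor 1 to 4, against 1.83, 12.7, 3.45 and 29.9 CPM in healthy placebo 1 to 4, a log2 difference of -0.52 ± 0.79 (unadjusted p = 0.526). The placebo libraries held both the lowest and the highest values, and the difference was 0.49 without healthy placebo 4 and 0.09 without both libraries high in Prg4. Csf1 differed by 0.02 ± 0.30 and Il34 by -0.01 ± 0.24. The related receptor kinases that some CSF1-R inhibitors also reach gave 0.25 ± 0.47 for Kit, 0.24 ± 0.30 for Pdgfra and -0.20 ± 0.15 for Pdgfrb. Without healthy placebo 4, Kit was at 0.48, Pdgfra at 0.68 and Pdgfrb at -0.02. Flt3 was under the filter on low counts. In ACLT muscle Csf1r was at -2.10 ± 0.81, and the difference between the muscles was 1.59 ± 1.12 (edgeR unadjusted p = 0.180), so a different effect in the 2 muscles was not shown. Csf1r measured 9.51, 6.03, 11.6 and 7.85 CPM in ACLT inhibitor 1 to 4, against 16.4, 63.8, 60.0 and 10.4 CPM in ACLT placebo 1 to 4. ACLT placebo 2 and 3, the highest there, were also high in Prg4.

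Macrophage genes were spread widely among the placebo libraries. Of the 30 genes of the macrophage list, all tested, 28 had a log2 difference below 0 and 2 above, with a median of -0.83; 0 had an unadjusted p under 0.05 and for 0 did the groups not overlap. The summed level of the list was 264.3, 180.8, 178.6 and 97.8 CPM in healthy inhibitor 1 to 4, against 107.0, 183.3, 103.6 and 940.5 CPM in healthy placebo 1 to 4. Healthy placebo 4 alone was above the inhibitor range, and without it the list's median was 0.50; without healthy inhibitor 1 it was -1.45, and without both libraries 0.02. In bulk RNA, fewer cells of a type and less RNA per cell cannot be told apart.

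Individual markers showed the same shape. Adgre1, which encodes F4/80, measured 3.38, 1.38, 2.57 and 0.847 CPM in healthy inhibitor 1 to 4, against 0.545, 1.99, 1.04 and 13.4 CPM in healthy placebo 1 to 4. C1qa, a complement subunit made by macrophages, measured 12.03, 4.74, 3.52 and 2.12 CPM with inhibitor and 1.87, 4.79, 2.83 and 29.4 CPM with placebo. Healthy placebo 4 was the highest library for both and the inhibitor libraries overlapped the rest. The lysosomal marker Cd68 was at -1.73 ± 1.21 with all libraries and 0.39 without healthy placebo 4, Ms4a7 at -3.29 ± 1.69 and 0.54, and Trem2 at -3.07 ± 1.68 and 0.40.

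Genes of macrophages that reside in muscle gave smaller values. Of 17 members, 8 were above 0 and 9 below, with a median of -0.15, and 0.40 without healthy placebo 4. Lyve1, a hyaluronan receptor of perivascular macrophages and lymph vessels, was at 0.29 ± 0.64, the mannose receptor gene Mrc1 at -0.46 ± 0.48 and the folate receptor gene Folr2 at -1.09 ± 0.87. Cd209f, a C-type lectin of such cells, had the smallest p of the list and was at 1.09 ± 0.52 (unadjusted p = 0.0505), with 2.52, 2.64, 1.42 and 0.265 CPM with inhibitor and 0.506, 1.04, 0.541 and 1.15 CPM with placebo. Healthy inhibitor 1 to 3 were thus above all placebo libraries and healthy inhibitor 4 was below them.

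The monocyte list had 10 of 11 tested members below 0 and a median of -1.20, which was 0.28 without healthy placebo 4. Its gene Ccr2, the receptor that brings monocytes into tissue, was at -1.28 ± 0.96 with all libraries and 0.13 without that library. Plac8 was the 1 of 11 members with an unadjusted p under 0.05 (9.09%, against 3.34% of all genes). Its difference was -2.72 ± 1.26 (edgeR unadjusted p = 0.0470), and -1.06 without healthy placebo 4. MHC class II and dendritic cell genes (3 of 12 above 0), complement (4 of 16) and cytokines and chemokines (1 of 11) had medians of -0.22, -0.24 and -0.29, and of 0.63, 0.48 and 0.30 without healthy placebo 4. In ACLT muscle the macrophage list's median was -2.64 and the monocyte list's -2.25, with ACLT placebo 2 and 3 the libraries high in Prg4 there, at 220 and 286 CPM.

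**Figure D4:**
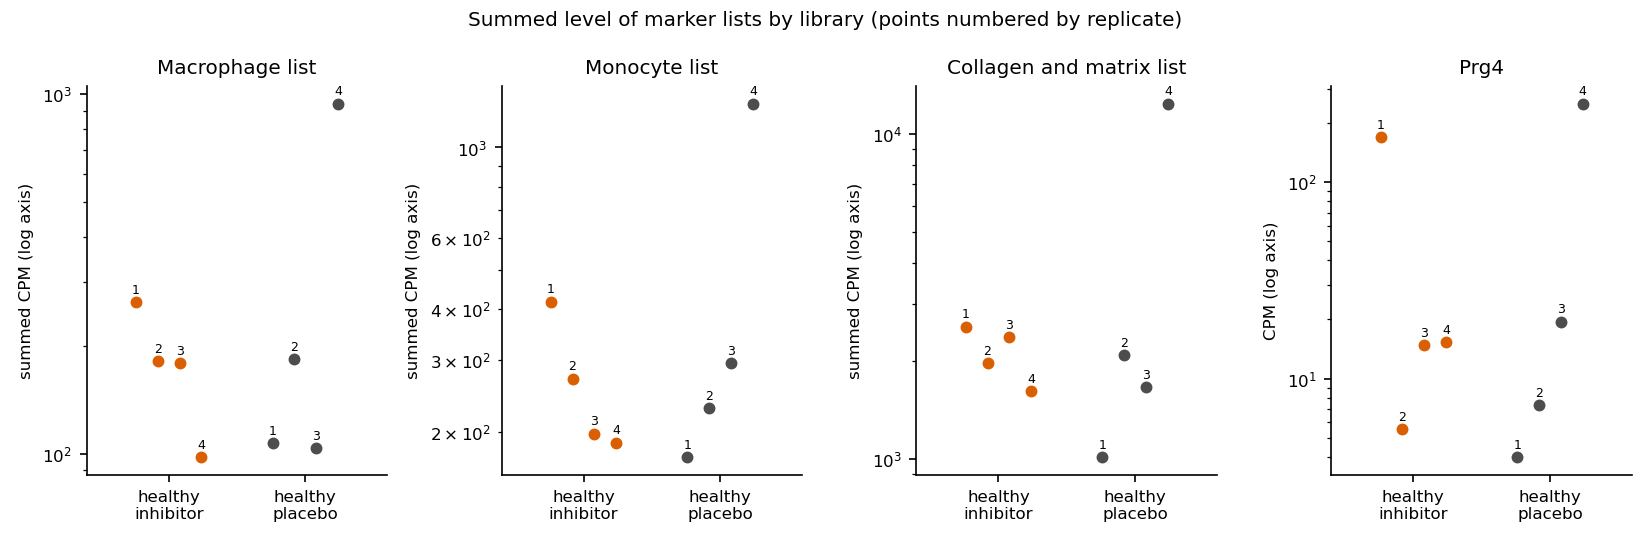
Summed CPM of 3 marker lists and CPM of Prg4 in the healthy inhibitor and healthy placebo libraries (log y axes), with points numbered by replicate. Healthy placebo 4 is the highest library in all 4 panels, with 940.5 CPM for the macrophage list, and healthy inhibitor 1 is the highest inhibitor library in Prg4, at 169 CPM.

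Collagen and matrix genes varied with the same library. Of 42 members, 36 were below 0 and 6 above, with a median of -0.67, and 3 had an unadjusted p under 0.05 (7.14%, against 3.34% of all genes), all lower: Postn, Timp3 and Col11a1, a chain of type XI collagen at -2.72 (-0.26 without healthy placebo 4). The summed level was 2551.6, 1966.4, 2365.9 and 1615.5 CPM in healthy inhibitor 1 to 4, against 1011.1, 2084.4, 1660.5 and 12385.5 CPM in healthy placebo 1 to 4. The median was 0.47 without healthy placebo 4 and 0.37 without both libraries high in Prg4. Col1a1, a chain of type I collagen, measured 115, 70.9, 118 and 66.1 CPM with inhibitor and 17.2, 75.4, 88.5 and 2095 CPM with placebo. Postn, the matricellular protein periostin, was at -4.13 ± 1.70 (unadjusted p = 0.0308) with all libraries and 0.16 without healthy placebo 4. Col2a1, the cartilage collagen, was also highest in that library, at 7.58 CPM. Timp3, an inhibitor of matrix proteases, differed from these in that healthy placebo 4 did not stand apart, at 96.3, 107, 90.6 and 87.2 CPM with inhibitor and 98.2, 129, 117 and 122 CPM with placebo (-0.29 ± 0.11, unadjusted p = 0.0148). The part of joint tissue, marked by Prg4 and Col2a1, in the macrophage and matrix values was not tested.

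Other stromal and vascular lists had few members at low p. Of 16 genes of fibro-adipogenic progenitors, the mesenchymal cells of muscle, 11 were above 0, and 2 had an unadjusted p under 0.05, both higher (12.5%, against 3.34% of all genes). Cxcl14, a chemokine, was at 0.47 ± 0.16 and Tcf7l2, a transcription factor of the Wnt pathway, at 0.46 ± 0.15, and Tcf7l2 had 5.58, 4.97, 5.67 and 5.77 CPM with inhibitor and 3.00, 4.38, 4.58 and 4.06 CPM with placebo. Both were below 0 in ACLT muscle, at -0.31 and -0.44. The differences between the muscles were 0.78 ± 0.22 and 0.90 ± 0.22 (edgeR unadjusted p = 0.00243 and 0.000721, adjusted p = 0.998 for both). These 2 genes were picked by their healthy p, and the differences reuse the healthy values, so their small unadjusted p is no independent support. Of 16 endothelial genes, 8 were below 0, and the 2 at an unadjusted p under 0.05 (12.5%, against 3.34% of all genes) were both lower: the water channel Aqp1 at -0.38 ± 0.14, without overlap, and the junction protein Esam at -0.25 ± 0.11. All 13 tested adipocyte genes were above 0, with a median of 0.46 and 0 at an unadjusted p under 0.05; the median was 1.00 without healthy placebo 1 and 0.24 without healthy placebo 4, and Adipoq, the hormone adiponectin, was at 0.77 ± 1.15.

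Fibre type genes followed single libraries rather than groups. Of 18 slow-twitch genes 17 were above 0, with a median of 0.71, but 0 had an unadjusted p under 0.05, and the median was 0.09 without healthy inhibitor 1 and -0.03 without both libraries high in Prg4. Myh7, the slow myosin heavy chain, measured 1288, 5.50, 776 and 195 CPM in healthy inhibitor 1 to 4, against 26.8, 768, 123 and 264 CPM in healthy placebo 1 to 4. Each group thus held libraries with much and with little Myh7. Tnnt1, the slow troponin T, was at 1.21 ± 1.23, and at 0.49 without both libraries high in Prg4. Myh4, the fast myosin of type IIB fibres, was at -0.03 ± 0.25, and the 20 fast-twitch genes had a median of -0.01.

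Genes of atrophy, myogenesis and the neuromuscular junction showed no common shift. Of 28 atrophy genes, 14 were above and 14 below 0, with a median of 0.00, and the ubiquitin ligases Fbxo32 and Trim63 were at -0.20 ± 0.35 and -0.01 ± 0.21. Of 18 myogenesis genes, 3 had such a p (16.7%, against 3.34%), all without overlap: Myf6, Igfn1, an immunoglobulin-domain protein of the Z-disc, at 0.81 ± 0.34, and Hey1, a Notch target, at -0.48 ± 0.21. Myog, the factor that drives myoblast differentiation, was at 0.39 ± 0.65 in healthy and -2.14 ± 0.65 in ACLT muscle (difference 2.54 ± 0.91, edgeR unadjusted p = 0.0154; 1.88 ± 1.10 and unadjusted p = 0.130 with the stem of the library names as a block). It measured 3.87, 3.6, 7.27 and 4.88 CPM in ACLT inhibitor 1 to 4, against 5.67, 44.6, 33.7 and 2.94 CPM in ACLT placebo 1 to 4, so ACLT placebo 2 and 3, the libraries high in Prg4, stood apart. The spread of these ACLT libraries also enters the SE given for Myog in healthy muscle. Of 21 denervation and junction genes, 2 had an unadjusted p under 0.05 (9.52%, against 3.34% of all genes). Agrn, which encodes the junction organiser agrin, was at -0.32 ± 0.09, without overlap, and the kinase Sik1 at 0.59 ± 0.24. Agrn measured 18.1, 16.3, 17.5 and 14.1 CPM with inhibitor and 20.2, 20.9, 19.8 and 21.8 CPM with placebo. The acetylcholine receptor subunit Chrna1 was at 0.04 ± 0.31, and Musk, the kinase through which agrin acts, at 0.41 ± 0.20. Without both libraries high in Prg4, Musk was at 0.18.

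Lists of fuel metabolism had medians near 0. Of 34 fatty acid oxidation genes 31 were above 0, with a median of 0.10, and 2 had an unadjusted p under 0.05 (5.88%, against 3.34% of all genes), Pdk4 and Fabp3, both higher. The list's median was 0.02 without healthy inhibitor 1 and -0.01 without both libraries high in Prg4. Pdk4, the kinase that switches off pyruvate dehydrogenase, measured 1085, 288, 1163 and 910 CPM in healthy inhibitor 1 to 4, against 373, 172, 276 and 471 CPM in healthy placebo 1 to 4 (log2 difference 1.42 ± 0.55, unadjusted p = 0.0230). Healthy inhibitor 2 lay among the placebo libraries and the other 3 inhibitor libraries above them. Fabp3, a fatty acid carrier of muscle, was at 0.68 ± 0.29 and at 0.39 without both libraries high in Prg4. Of 50 oxidative phosphorylation genes 43 were above 0, with a median of 0.06 and 0 at an unadjusted p under 0.05; the median was -0.07 without both libraries. Its members Cox5a and Cox8b, subunits of cytochrome c oxidase, were at 0.07 ± 0.11 and 0.32 ± 0.18. The 25 genes of glycolysis and glucose uptake had a median of -0.01.

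**Figure D5:**
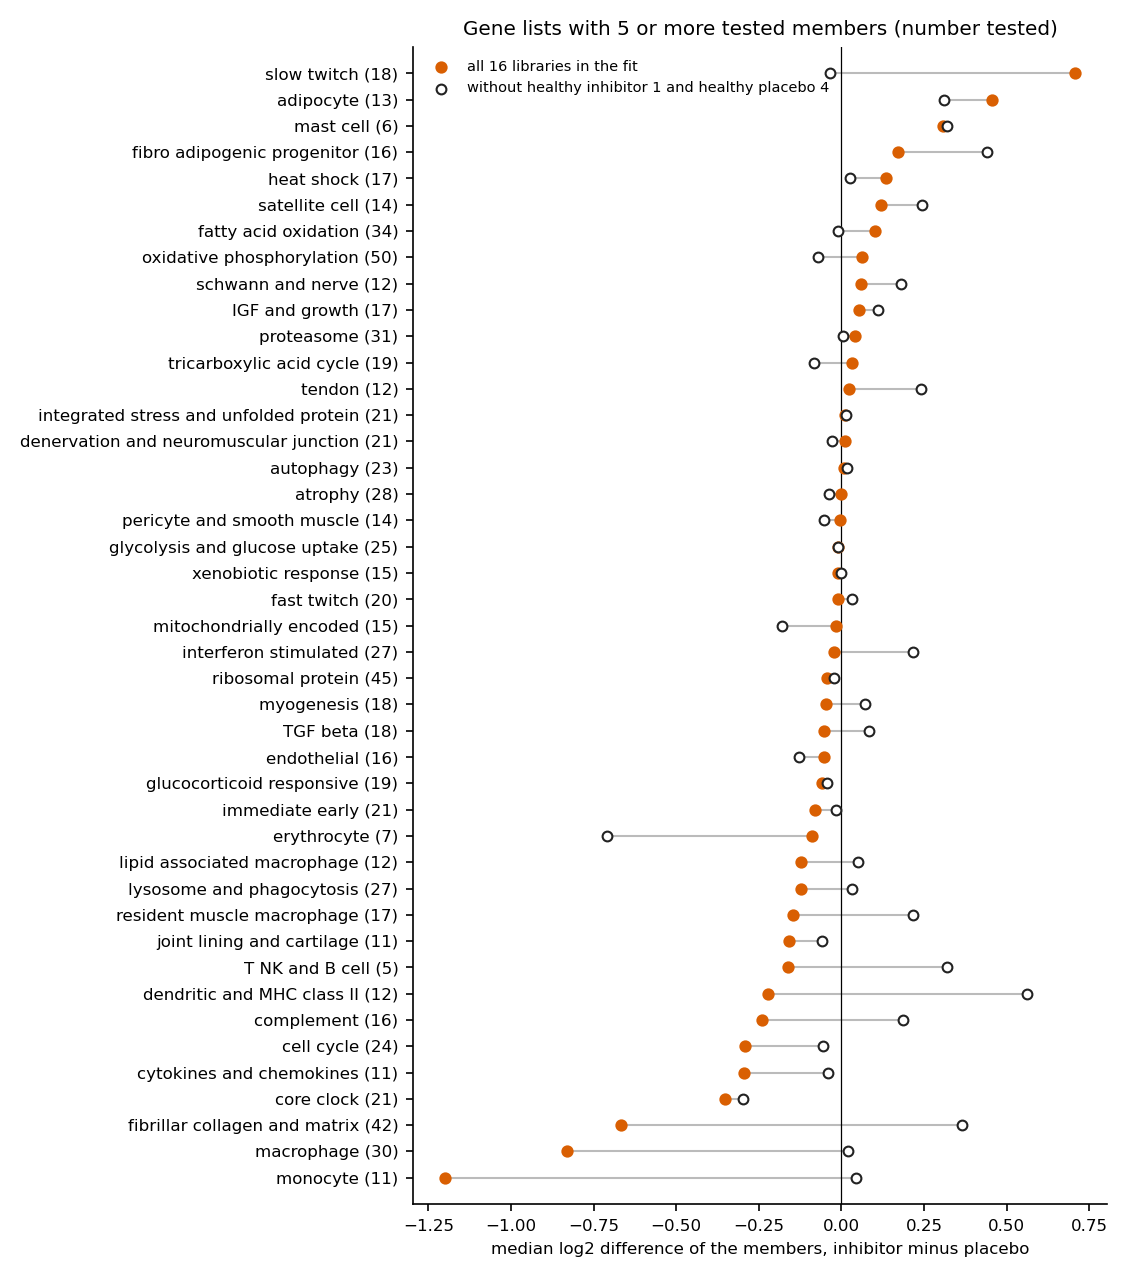
Median log2 difference of the tested members (x axis) for each gene list with 5 or more tested members (y axis, number tested in brackets), with all libraries in the fit (filled) and without healthy inhibitor 1 and healthy placebo 4 (open). The core clock median is -0.35 with all libraries and -0.30 without those 2, while the macrophage median is -0.83 and 0.02, and the slow-twitch median 0.71 and -0.03.

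No gene was called for a difference of the inhibitor effect between healthy and ACLT muscle. Of 15411 genes, 0 were called for the difference of the 2 effects by edgeR (0%; smallest adjusted p 0.998) and 0 by DESeq2 or limma-voom, and 423 had an unadjusted p under 0.05 (2.74%). With the stem of the library names as a block, chosen after seeing the data, 0 genes were called and 311 had an unadjusted p under 0.05 (edgeR, 6 residual degrees of freedom). The inhibitor effect within healthy muscle cannot be fitted with that block, since each stem holds 1 treatment. In ACLT muscle itself 0 genes were called by edgeR and 2289 had an unadjusted p under 0.05 (14.9%). Ifi35, an interferon-induced protein, had 7.91, 8.03, 8.12 and 8.73 CPM in healthy inhibitor 1 to 4, against 4.24, 5.74, 6.12 and 4.89 CPM in healthy placebo 1 to 4. Its log2 difference was 0.64 ± 0.16 there and -0.32 ± 0.16 in ACLT muscle (difference 0.97 ± 0.23, edgeR unadjusted p = 0.000661, adjusted p = 0.998). Ifi35 was picked by its healthy values, which this difference reuses, so its small unadjusted p is no independent support.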

How the data were processed

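RNA of 16 mouse quadriceps was sequenced, and the authors deposited 1 table of expected counts per Ensembl gene, not normalized, with 17370 genes; 24.2% of values were more than 0.01 away from a whole number. The submitters' processing notes name STAR, Partek, DESeq2 and GRCm38/mm10, without role or version. Counts were rounded to whole numbers. Symbols came from GENCODE M21 by Ensembl ID (17338 genes), and promoters from RefSeq.

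The filter on low counts (filterByExpr, minimum count 10) took out 1959 genes. After TMM scaling, a robust quasi-likelihood model with a mean for each of the 4 groups was fitted across the 16 libraries in edgeR 4.0.16 (R 4.3.3), with 12 residual degrees of freedom and a common biological coefficient of variation of 0.284. The contrasts were tested two-sided, and p-values were adjusted by Benjamini-Hochberg over the 15411 genes kept, at 0.05. Alternatives were DESeq2 1.42.0, its size factors, no filter, limma-voom (limma 3.58.1) with quality weights, the healthy libraries alone, a replicate block, each healthy library left out, and both libraries high in Prg4 left out.

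The members and the 46 gene lists (869 genes, 845 in the table) were chosen with earlier results of these data known. Named were fixed genes, the 12 higher and 12 lower genes of smallest p without overlap (mean log2 CPM of 1 or more, predicted genes left out), and some of the 3 members of smallest p of each list; Pax7, Musk, Tnnt1, Col11a1 and further clock members were named after their values were seen. Totals of 20.12 to 27.13 M (mega) counts set the counting precision. Figures were drawn with matplotlib 3.10.9.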

Additional observations from a re-analysis of the deposited data

Results flagged for a closer look

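Of 204 groups of 4 values examined, 28 held a library that stood apart from the other 3, by a gap to its nearest neighbour above Dixon's 95% critical value for the share of the group's range. Chance flags about 1 in 20 groups (5%), and the genes share libraries, so the flags are not independent.

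Healthy placebo 4 was the library apart in 18 of them. It was the highest placebo library for Pdgfrb (40.2 CPM), Adgre1 (13.4 CPM), Cd68 (14.1 CPM), C1qa (29.4 CPM), Ms4a7 (7.19 CPM), Trem2 (6.66 CPM), Ctss (31.1 CPM), Folr2 (10.8 CPM), Ccl8 (5.42 CPM) and Ccr2 (17.5 CPM). It was also highest for Spp1 (38.2 CPM), Runx1 (18.3 CPM), Col1a1 (2095 CPM), Postn (551 CPM), Prg4 (251 CPM), Col2a1 (7.58 CPM) and Col11a1 (34.2 CPM), and lowest for Aqp1 (276 CPM). Healthy inhibitor 1 was highest among inhibitor libraries for Prg4 (169 CPM), Ccl8 (0.503 CPM) and Zfp329 (8.37 CPM).

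Healthy placebo 1 was highest among placebo libraries for Arntl (43.0 CPM) and Nfil3 (60.1 CPM). Healthy placebo 3 was lowest for Npas2 (0.416 CPM) and highest for Fabp3 (162 CPM). Healthy placebo 2 was highest for Hey1 (6.19 CPM) and Csrp3 (61.5 CPM), and healthy inhibitor 2 for Cry2 (37.6 CPM).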

How the results depend on the processing

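The count of 0 genes called by edgeR was 11 with DESeq2, 0 to 1 with single healthy libraries left out (1 without healthy placebo 1, Coq10b) and 0 under the other alternatives. Genes at an unadjusted p under 0.05 numbered 514, and 404 to 810 with single libraries left out (810 without healthy placebo 3). For the difference between healthy and ACLT effects the count of such genes was 423, and it was 1671 with limma-voom and quality weights, 936 without both libraries high in Prg4, and 350 to 1274 with single libraries left out (1274 without healthy placebo 4). Deviations of same-numbered libraries from their group means correlated at -0.24, -0.07, -0.15 and -0.19. Differently numbered libraries were not compared, so these values do not decide whether replicate numbers pair the samples. With the replicate block 0 genes were called for the inhibitor and 505 had an unadjusted p under 0.05; Il34 was then at 0.00200 and Trim63 at 0.0171 on the log2 scale.

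Direction turned as follows, in log2 differences, for genes that no edgeR fit called; the cause was not tested. With limma-voom and quality weights Csf1r was at 0.31, Il34 at 0.0562, Adgre1 at 0.17, C1qa at 0.0167, Ccl8 at 0.41, Trim63 at 0.00916 and Prg4 at 0.30. Without both libraries high in Prg4, Csf1r was at 0.0861, Il34 at 0.24, Adgre1 at 0.45, C1qa at 0.15, Folr2 at 0.00197, Ccl8 at 1.14, Chrna1 at -0.0891, Myh4 at 0.13, Cox5a at -0.0318, Col1a1 at 0.49 and Prg4 at 0.20. With single libraries left out the ranges were -0.92 to 0.49 for Csf1r, -0.16 to 0.39 for Csf1, -0.12 to 0.16 for Il34, -1.41 to 0.80 for Adgre1, -2.21 to 0.39 for Cd68, -1.47 to 0.83 for C1qa, -4.61 to 0.54 for Ms4a7, -3.76 to 0.40 for Trem2, -2.42 to 0.25 for Ctss and -0.11 to 0.79 for Lyve1. They were -1.59 to 0.51 for Folr2, -0.73 to 0.0740 for Mrc1, -3.39 to 1.90 for Ccl8, -1.62 to 0.13 for Ccr2, -3.02 to 0.12 for Spp1, -0.17 to 0.0372 for Rora, -0.12 to 0.0344 for Csnk1e, -0.0194 to 0.0898 for Acta1, -0.0819 to 0.23 for Chrna1, -0.18 to 0.10 for Trim63, -0.19 to 0.16 for Myh4, -3.02 to 0.62 for Col1a1, -4.54 to 0.16 for Postn, -2.57 to 2.32 for Prg4 and -3.25 to 0.94 for Col2a1. The other 1395 gene values kept their direction and their side of the threshold, and 12 more passed it (11 with DESeq2, 1 without healthy placebo 1). Of list medians, 658 moved by less than the spread of libraries and 31 by more. With 4 libraries a group, the wide spread of low genes such as Ms4a7 limits what differences could be called.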

Other observations

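Some genes of early response, stress and growth lists had an unadjusted p under 0.05 and were not called by edgeR. Of 21 immediate early genes, 3 had such a p (14.3%, against 3.34% of all genes): Nr4a3, an orphan nuclear receptor gene, had a log2 difference of 1.66 ± 0.57 (15.5, 3.48, 10.1 and 2.33 CPM in healthy inhibitor 1 to 4, against 2.34, 2.48, 1.83 and 3.26 CPM in healthy placebo 1 to 4). The Nr4a3 difference was 1.11 without healthy inhibitor 1 and 1.27 without both libraries high in Prg4. Jun was at 0.38 ± 0.13 and Klf6 at -0.32 ± 0.15, the groups not overlapping for Klf6. In the insulin-like growth factor list, 2 of 17 had such a p (11.8%), the binding protein gene Igfbp3 at -0.49 ± 0.19 and the insulin receptor substrate gene Irs1 at 0.46 ± 0.20. Smad7, an inhibitor of TGF-beta signalling, was at 0.49 ± 0.20, without overlap, and was the 1 of 18 members of the TGF-beta list at such a p (5.56%). Xbp1, a factor of the unfolded protein response, was at -0.26 ± 0.11 and was the 1 of 21 members of its list at such a p (4.76%). Tiparp, a target of the aryl hydrocarbon receptor, was at -0.82 ± 0.31. In its list of xenobiotic response genes 2 of 15 had such a p (13.3%), 1 higher and 1 lower, and the median was -0.01. Of 14 satellite cell genes 0 had such a p, with Myod1 at 0.45 ± 0.23 and Pax7, which marks the stem cells of muscle, at 0.42 ± 0.30. Of 31 proteasome genes 25 were above 0, with a median of 0.04, and of 45 ribosomal protein genes 30 were below 0, with a median of -0.04; 0 members of either had such a p.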
